A study of Mus musculus with 2 samples.

Results

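Interferon-stimulated genes were followed across the cell lineages of subcutaneous ovarian tumors. The set was a fixed list of 41 gene symbols matched to the gene list of the libraries, of which 39 were found among 32285 genes. Mx1 and Mx2 had no entry under these symbols and were not analysed here. Members were taken as a type I group of Ifit and Oas genes (8 measured of 10 with the Mx genes), a gamma-type group of 8 guanylate-binding protein and immunity-related GTPase genes (Gbp2, Gbp3, Gbp4, Gbp5, Gbp7, Igtp, Irgm1 and Irgm2), 4 transcription factors, 3 genes of the ISG15 system, 3 nucleic acid sensors, 3 genes of the p200 family and 10 other effectors. The group names follow common usage and do not say which interferon acted, since most members can respond to both kinds.

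The tumors grew from SO cells, a syngeneic mouse ovarian cancer line, after injection of 1000000 cells under the skin of female C57BL/6 mice aged 6 to 8 weeks. WT mice were wild type, and TSK (tight skin) mice are heterozygous for a partial duplication within the fibrillin gene Fbn1 and develop thickened, fibrous skin. Tumors of 4 WT mice gave 1 pooled library and tumors of 4 TSK mice the other, so mice cannot be told apart within a pool, and the spread between mice is unknown. Single cells were captured in droplets without selection of cell types, and each RNA molecule was counted once by its unique molecular identifier (UMI).

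Interferons are secreted proteins that cells release on sensing foreign or misplaced nucleic acid (type I interferons) or on activation of T and NK cells (interferon gamma). Type I interferons bind the Ifnar1 and Ifnar2 receptor and send a complex that includes Stat2 and Irf9 to a DNA motif called the interferon-stimulated response element (ISRE), whereas interferon gamma binds Ifngr1 and Ifngr2 and acts through a motif called the gamma-activated site (GAS). Ifit proteins bind viral RNA, Oas proteins make a second messenger that activates an RNA-degrading enzyme, and the Gbp and Irg GTPases attack the membranes around intracellular pathogens.

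The promoters below are examples chosen from members with a match to the letters named here. Both kinds of letters occur in both the type I and the gamma-type group, with counts given after the sequences. Each is a stretch of the 250 bases before the RefSeq start site in build GRCm38.p6, written along the gene's strand, with capitals marking every match in the stretch to 2 copies of GAAA separated by any 2 bases (the ISRE letters, read on either strand) or TTCNNNGAA (the GAS letters, the same on both strands). The Ifit1 and Irgm1 stretches hold 2 ISRE matches, which overlap in Irgm1. The first 3 are type I-responsive genes, the next 4 are gamma-type genes, and the last is the gene of the transcription factor Irf1. Their positions are chr19:34640784-34640833 for Ifit1, chr19:34583387-34583436 for Ifit3, chr12:26456543-26456592 (minus strand) for Rsad2, chr3:142620584-142620633 for Gbp2, chr11:58199491-58199551 for Igtp, chr11:58214882-58214942 for Irgm2, chr11:48871421-48871464 (minus strand) for Irgm1 and chr11:53769904-53769952 for Irf1.
Ifit1: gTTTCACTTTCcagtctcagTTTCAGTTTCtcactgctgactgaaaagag
Ifit3: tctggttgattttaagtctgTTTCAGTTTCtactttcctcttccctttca
Rsad2: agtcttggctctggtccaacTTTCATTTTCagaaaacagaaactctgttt
Gbp2: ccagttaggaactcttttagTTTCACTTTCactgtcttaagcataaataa
Igtp: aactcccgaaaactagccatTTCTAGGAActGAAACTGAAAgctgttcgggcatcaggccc
Irgm2: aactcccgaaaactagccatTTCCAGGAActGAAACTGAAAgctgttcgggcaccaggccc
Irgm1: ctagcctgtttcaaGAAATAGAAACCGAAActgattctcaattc
Irf1: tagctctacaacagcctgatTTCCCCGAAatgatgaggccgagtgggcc

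Of the 41 symbols, 30 had an entry among the RefSeq promoters. The ISRE letters lay before the start of 18 of these 30 genes (60%) and of 3.46% of 27025 genes in all, and the GAS letters before 8 of 30 (26.7%) and 8.13% in all. The gamma-type group held ISRE letters in 7 of 7 genes and GAS letters in 4 of 7, and the type I group in 4 of 7 and 2 of 7. Ifit2, Oasl1 and Oasl2 had no ISRE letters, and Ifit2 and Oas1a had GAS letters. In Igtp and Irgm2, neighbours on chromosome 11, both matches stood side by side, and 59 of the 61 printed bases were identical. A match of letters is a description of the window and not evidence of binding.

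The members lie on many chromosomes of GRCm38 (GENCODE M21). Ifit1, Ifit2 and Ifit3 are clustered on chromosome 19 (Ifit1 at chr19:34640871-34650009), Gbp2, Gbp3, Gbp5 and Gbp7 on chromosome 3 (Gbp2 at chr3:142620602-142638008) and the Oas genes on chromosome 5. On chromosome 11, Igtp (chr11:58199556-58207591) overlaps Irgm2 (chr11:58199618-58222782) on the same strand, so reads in the shared stretch could be split or lost. The Ifit, Oas and Gbp families also contain near-identical copies, and values of single genes within them are uncertain to that extent. By these GENCODE positions, the printed Gbp2 match and the printed Irgm1 and Irgm2 stretches lie inside their genes (Irgm1 at chr11:48861968-48871683). The RefSeq start sites used for the promoters differ there.

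The WT library held 21225411 UMIs in 2332 barcodes and the TSK library 48296765 in 4436. A total of 263 barcodes occurred in both libraries and were left out, and 1442 WT and 2961 TSK cells passed the cell filter, with medians of 7658.5 and 7302 UMIs per cell. Each cell was given to the lineage with most marker UMIs (at least 5, and at least 2 times those of the next lineage), which placed 84.5% and 76.1% of the cells. The 6 lineages with at least 30 cells in each library were compared: T cell-like (460 WT and 277 TSK cells), macrophage-like (364 and 508), neutrophil-like (42 and 205), fibroblast-like (177 and 283), endothelial-like (68 and 61) and cancer-like (78 and 864). All markers of each of these lineages had a UMI in both libraries, apart from Ly6g in WT neutrophil-like cells and Krt7 in TSK cancer-like cells. Fbn1, the gene that the TSK mutation duplicates, stood at 1397 and 1421 CPM in WT and TSK fibroblast-like cells, and 3′ counts do not show the duplication itself.

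Levels are UMIs per 1000000 UMIs of all genes in the lineage (CPM), and a ratio is the log2 of the TSK level over the WT level, negative where TSK was lower. Brackets give exact 95% intervals (Poisson for levels, conditional for ratios, binomial for shares). They cover counting error only, not the spread between cells, mice or libraries. Each genotype had a single library, which left nothing to test WT against TSK mice with, and directions below are descriptions of these libraries. Shares of all genes past 2-fold were counted under the main settings only. Member counts under other settings therefore have no such share to be read against. A gene had to reach 50 UMIs over both libraries in a lineage to be given a ratio. Settings that leave fewer cells can leave fewer members with 50 UMIs, and how many were left was not counted. The median ratio of all such genes was above 0 in every lineage, at 0.14 in T cell-like, 0.26 in macrophage-like, 0.20 in neutrophil-like, 0.30 in fibroblast-like, 0.32 in endothelial-like and 0.10 in cancer-like cells, so that a member at 0 was slightly below the middle gene.

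Under the main settings, the gamma-type group was lower in TSK mice in all 6 lineages. The gap was small in T cells and widest in neutrophil-like and endothelial-like cells. In endothelial-like cells, its summed level was 1287 CPM in WT and 346 CPM in TSK mice, a ratio of −1.90 [−2.10, −1.70]. Neutrophil-like cells had 2465 and 548 CPM (−2.17 [−2.39, −1.95]) and cancer-like cells 526 and 178 CPM (−1.57 [−1.65, −1.48]). Fibroblast-like cells had 766 and 397 CPM (−0.95), macrophage-like cells 748 and 390 CPM (−0.94 [−1.03, −0.85]) and T cell-like cells 506 and 406 CPM (−0.32 [−0.49, −0.15]). The ranking of lineages was not fixed. With lineages taken from clusters of cells, cancer-like cells were at −1.80 and endothelial-like cells at −1.56. Equal weight for each cell kept it, at −1.46 in neutrophil-like, −1.40 in endothelial-like and −1.14 in cancer-like cells. Under the upper limit of 10000 UMIs per cell used in the study, only 14 WT and 147 TSK cancer-like cells remained. Their gamma-type ratio was 0.05 [−0.80, 1.03]. The fibroblast-like ratio was then −0.29 [−0.62, 0.06].

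The type I group did not share that order. It was 118 CPM in WT and 290 CPM in TSK endothelial-like cells (1.30 [0.98, 1.62]), and 171 and 90.8 CPM in cancer-like cells (−0.91 [−1.05, −0.77]). Macrophage-like cells had similar levels of 349 and 364 CPM (0.06 [−0.05, 0.17]), as had fibroblast-like cells with 186 and 210 CPM (0.18 [0.03, 0.32]). T cell-like cells had 209 and 170 CPM (−0.30) and neutrophil-like cells 1142 and 823 CPM (−0.47). The neutrophil-like lineage was highest for both groups in both genotypes, while the lowest type I level was that of endothelial-like cells in WT and of cancer-like cells in TSK mice. The sign was not stable for 4 lineages. Under the upper UMI limit, the ratio was 1.13 [−0.46, 3.44] for cancer-like and 0.03 [−0.25, 0.31] for neutrophil-like cells. Centred on the median gene, it was −0.13 [−0.28, 0.02] for fibroblast-like and −0.20 [−0.31, −0.10] for macrophage-like cells. Of these intervals, only the last excluded 0.

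**Figure D1:**
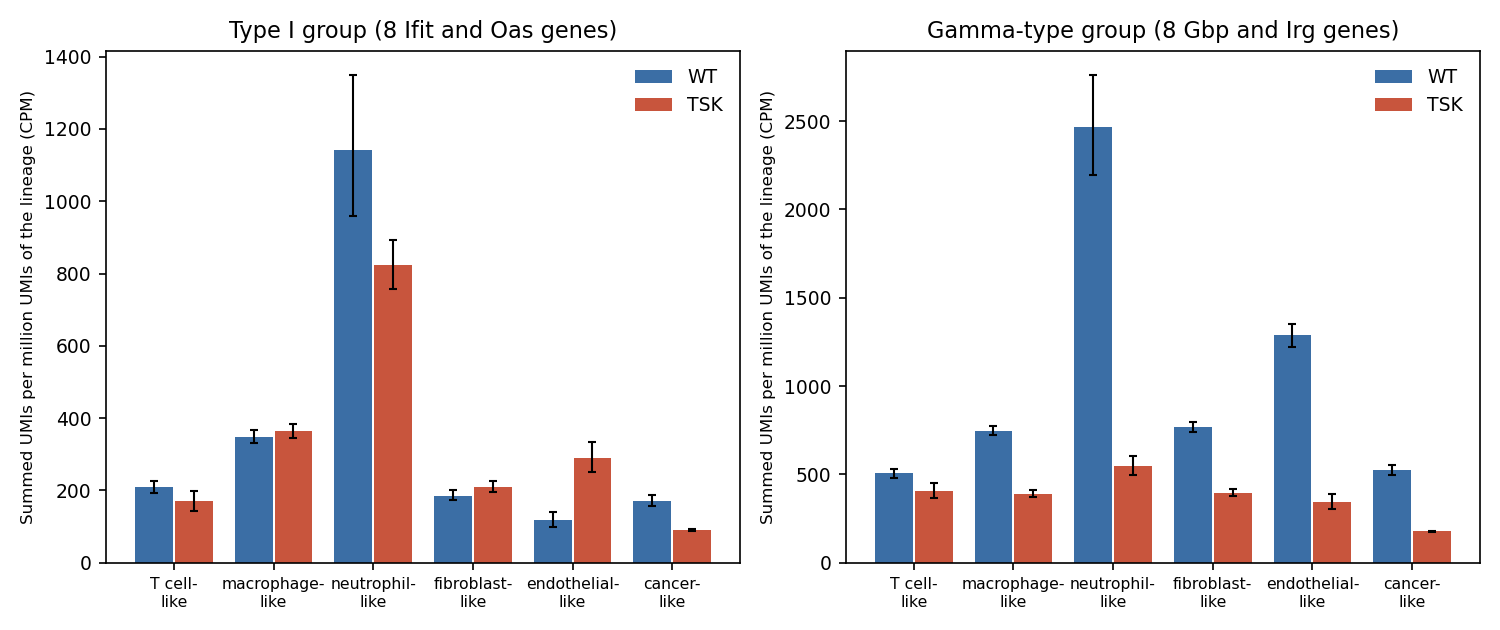
Summed level of the type I group (left) and the gamma-type group (right) in CPM, by lineage, for the WT library (blue) and the TSK library (red); error bars are exact 95% Poisson intervals for counting error. The gamma-type bar is lower in TSK in all 6 lineages (1287 against 346 CPM in endothelial-like cells), whereas the type I bar is higher in TSK endothelial-like cells (290 against 118 CPM).

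A few cells carried much of the type I signal. In TSK endothelial-like cells, the 5 cells with most type I UMIs held 69.1% of the 204 UMIs, and 1 cell alone had 54. Without the top 5 cells of each library, the levels were 78.0 CPM in WT and 96.7 CPM in TSK mice, so most of the difference between the endothelial-like samples lay in those cells. In WT cancer-like cells, 5 of 78 cells held 66.0% of the type I UMIs, and without the top 5 of each library the levels were 64.2 and 64.2 CPM. The top 5 WT neutrophil-like cells held 71.2%. Without the top 5 of each library, type I levels in that lineage were 382 CPM in WT and 720 CPM in TSK mice, the opposite order. Taking out 5 cells removes a larger part of the 78 WT than of the 864 TSK cancer-like cells. The same holds for the 42 WT and 205 TSK neutrophil-like cells. Since the cells were picked by their type I UMIs, this by itself lowers WT levels more. With equal weight for each cell, the type I ratio was −0.55 in cancer-like and −0.0168 in neutrophil-like cells.

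Gamma-type UMIs also lay to a large part in few cells of some lineages: the 5 highest cells held 52.9% of them in WT and 49.8% in TSK endothelial-like cells, 63.0% in WT neutrophil-like and 38.8% in WT cancer-like cells. In macrophage-like cells they held 9.24% and 9.48%. At least 1 gamma-type UMI was found in 94.1% of WT and 73.8% of TSK endothelial-like cells, in 86.3% and 64.6% of macrophage-like cells and in 80.8% and 51.4% of cancer-like cells. Depth was not made equal for these shares, and WT cells were deeper. With cells thinned to 2000 UMIs, no gamma-type UMI was found in 34.3% and 53.6% of endothelial-like and 37.5% and 54.8% of macrophage-like cells. The shares without one were 55.3% and 81.6% in cancer-like and 52.5% and 53.8% in T cell-like cells. Without the 5 highest cells of each library, the gamma-type level remained lower in TSK mice in each lineage: 725 and 190 CPM in endothelial-like, 1111 and 470 CPM in neutrophil-like, 357 and 159 CPM in cancer-like, 652 and 343 CPM in fibroblast-like, 697 and 365 CPM in macrophage-like and 468 and 359 CPM in T cell-like cells.

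Each cell was also thinned to 2000 UMIs, which makes depths equal (cells with fewer were left out). At least 3 different gamma-type genes were detected in 23.9% of 67 WT and 5.36% of 56 TSK endothelial-like cells, in 14.99% and 5.80% of macrophage-like cells, and in 33.3% of 27 WT and 8.33% of 108 TSK neutrophil-like cells. The shares were 11.3% and 7.89% in fibroblast-like, 7.73% and 5.43% in T cell-like and 6.58% and 2.46% in cancer-like cells. For the type I group, 0 of 67 WT endothelial-like cells had 3 genes, against 3 of 56 TSK cells (5.36% [1.12, 14.9]). A count of 0 of 67 allows a share of up to 4.48% when read as 3 counts, and the exact binomial upper bound is 5.36%, the same as the TSK share, so the difference was not detectable at this depth. In cancer-like cells, 0 of 76 WT cells (up to 3.95%) and 0.938% of 853 TSK cells had 3 type I genes, and in neutrophil-like cells 18.5% [6.30, 38.1] and 22.2% [14.8, 31.2], both opposite in order to the summed levels and within the intervals. Macrophage-like cells with 3 type I genes made up 5.19% and 6.03%, T cell-like cells 2.65% and 2.71%, and fibroblast-like cells 1.79% and 2.26%. The median depth without thinning was 11905.5 and 9252 UMIs in endothelial-like cells and 9754.5 and 6138.5 in macrophage-like cells.

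Taking the groups against each other within a lineage removes the denominator. Endothelial-like cells had 10.9 gamma-type UMIs per type I UMI in WT and 1.19 in TSK mice, the widest gap of the 6 lineages. The quotient was 4.12 and 1.89 in fibroblast-like cells, 2.14 and 1.07 in macrophage-like cells, 2.16 and 0.667 in neutrophil-like cells and 3.08 and 1.96 in cancer-like cells. T cell-like cells had nearly equal quotients of 2.42 and 2.39 (log2 ratio −0.02 [−0.33, 0.30]).

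**Figure D2:**
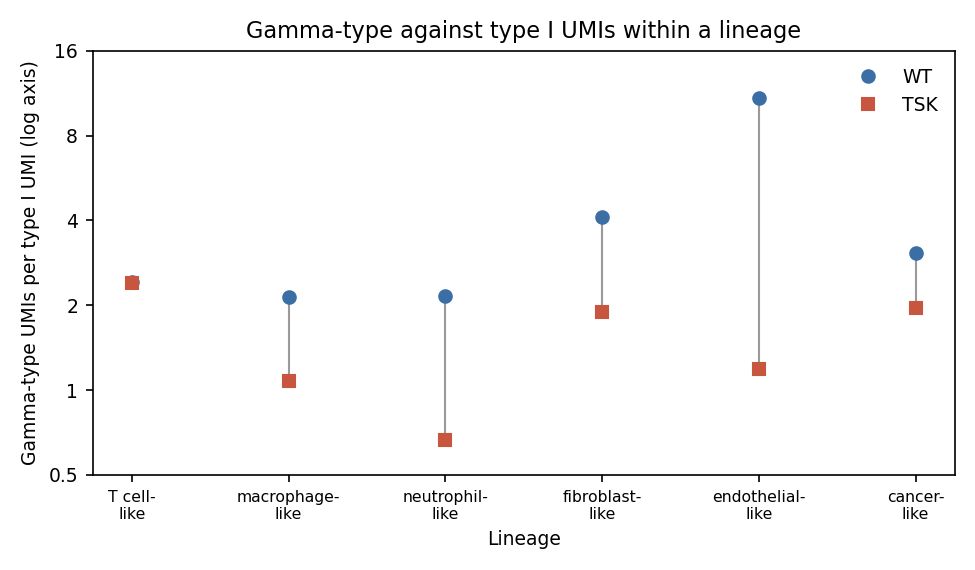
Gamma-type UMIs per type I UMI (log axis) in each lineage, WT as blue circles and TSK as red squares, joined by a line. The points coincide in T cell-like cells (2.42 and 2.39) and lie farthest apart in endothelial-like cells (10.9 and 1.19).

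Endothelial-like cells showed members on both sides of the 2-fold line. Of the 30 members with 50 UMIs, 8 were more than 2-fold lower in TSK mice (5.62% of all genes were) and 6 more than 2-fold higher (13.6% of all genes were). The median member ratio was −0.14. All 8 gamma-type genes were lower, 7 of them past 2-fold, and all 5 measured type I genes were higher, 4 of them past 2-fold. With the upper UMI limit, 2 members were past 2-fold lower and 0 higher in the 30 WT and 33 TSK cells left. How many members still had 50 UMIs there was not counted. The group ratios were then −1.64 (gamma-type) and 0.98 (type I).

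Gbp2, a guanylate-binding protein, was at 444 CPM in WT and 74.0 CPM in TSK endothelial-like cells (526 and 52 UMIs, ratio −2.58 [−3.02, −2.17]). Gbp5, which promotes inflammasome assembly, was at 79.3 and 17.1 CPM (−2.22), and Igtp, also known as Irgm3, at 118 and 29.9 CPM (−1.98). Gbp4 (−1.92), Gbp3 (−1.76), Irgm1 (−1.62) and Gbp7 (−1.32) followed, and Irgm2 was the member closest to equality (−0.71 [−1.63, 0.15]). The interval of Irgm2 was the only one in this group to include 0.

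Ifit3 was at 11.0 CPM in WT and 52.6 CPM in TSK endothelial-like cells (13 and 37 UMIs, ratio 2.26 [1.32, 3.30]). Ifit2 was at 18.6 and 52.6 CPM (1.504), Ifit1 at 20.2 and 56.9 CPM (1.49) and Oasl1, a regulator of Irf7 translation, at 17.7 and 42.7 CPM (1.27). Between 13 and 40 UMIs lie behind each of these levels. As given above, 5 cells held most of the TSK type I UMIs.

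Of the 4 transcription factors, 3 were lower in TSK mice and 1 was higher. Irf1, which drives many gamma-induced genes, was at 295 CPM in WT and 78.2 CPM in TSK endothelial-like cells (−1.92 [−2.35, −1.50]). Irf7, which amplifies type I interferon production, was at 35.4 and 88.2 CPM (1.32 [0.73, 1.92]). Irf9 was at 38.8 and 19.9 CPM (−0.96 [−1.94, −0.07]) and Stat2 at 74.2 and 58.3 CPM (−0.35 [−0.92, 0.20]). Rsad2 (viperin), an antiviral enzyme, was likewise higher in TSK mice, with 68.3 and 168 CPM (1.30 [0.88, 1.72]). Bst2 (tetherin), which holds budding virus at the cell surface, was among the most abundant members and differed little, with 293 and 324 CPM (0.15).

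**Figure D3:**
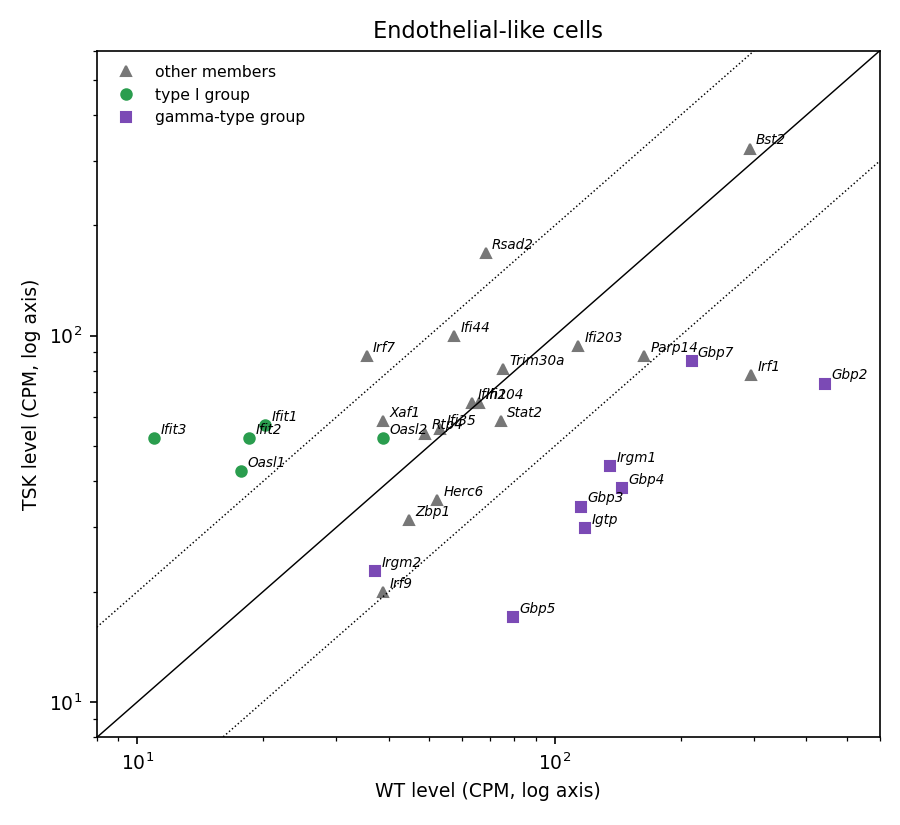
Level of each member with at least 50 UMIs in endothelial-like cells, WT on the horizontal and TSK on the vertical axis (CPM, log axes); the solid line marks equal levels and the dotted lines 2-fold. Gamma-type genes (squares) lie below the solid line, with Gbp2 at 444 and 74.0 CPM, and type I genes (circles) lie above it, with Ifit3 at 11.0 and 52.6 CPM.

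Other gamma targets were a list of 16 genes outside the set, of which 15 were in the gene list. In endothelial-like cells, 7 of the 9 measured were more than 2-fold lower in TSK mice (5.62% of all genes were). More than 2-fold higher were 0 of them (13.6% of all genes were). The list was chosen with earlier results of these data known, so it is not separate support for the gamma-type result. Iigp1, another GTPase of the Irg family, was at 1235 and 306 CPM (−2.01), Gbp6 at 110 and 17.1 CPM (−2.68) and the T cell attractant Cxcl9 at 988 and 269 CPM (−1.88). Cxcl10, which both interferon types induce, was at 130 and 179 CPM (0.46 [0.11, 0.81]). Of the receptors, Ifngr1, the ligand-binding chain for interferon gamma, was at 113 and 49.8 CPM (−1.18 [−1.76, −0.64]), whereas Ifnar1 (0.18) and Ifnar2 (−0.02) differed little.

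Of the cancer cell markers Lgals7 and Cdkn2a, endothelial-like cells held 4.22 CPM in WT and 159 CPM in TSK mice, and of their UMIs 8.46% and 14.9% came from ribosomal protein genes. Without cells holding either marker, the type I ratio was 2.02 and the gamma-type ratio −1.28. Per UMI of genes neither mitochondrial nor ribosomal, the ratios were 1.42 and −1.78. Both settings were picked once the data had been seen. Markers of T cells stood at 65.8 CPM in WT and 5.69 CPM in TSK endothelial-like cells, and those of macrophages at 279 and 134 CPM. Markers of neutrophils (27.0 and 137 CPM) and erythroid cells (3.37 and 9.96 CPM) were higher in TSK mice. The part of RNA from cancer cells, of RNA from other cells and of RNA content in the result was not tested.

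Cancer-like cells had the most members lower in TSK mice. Of 36 measured, 25 were more than 2-fold lower (7.33% of all genes were) and 0 more than 2-fold higher (7.85% of all genes were), and the median ratio was −1.23. With equal weight for each cell, 13 were past 2-fold lower. All 8 gamma-type genes were past 2-fold. Gbp4 was at 25.2 and 4.31 CPM (69 and 118 UMIs, −2.55 [−2.99, −2.10]), Gbp5 at 26.6 and 6.84 CPM (−1.96) and Gbp2 at 172 and 54.3 CPM (−1.66).

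The lower level extended to the ISG15 system, a ubiquitin-like tag and its enzymes. Usp18, which removes ISG15 and blocks the type I receptor, was at 31.4 and 7.97 CPM (−1.98 [−2.34, −1.60]), and Isg15 itself at 19.3 and 5.70 CPM (−1.76). Zbp1, a sensor of Z-form nucleic acid that can trigger cell death, was at 88.7 and 24.2 CPM (−1.88), while Ifih1, a sensor of long double-stranded RNA, was at 39.1 and 37.8 CPM (−0.05 [−0.34, 0.25]). Ifi203 (−1.55) and Ifi204 (−1.45) of the p200 family, a group of DNA-binding proteins, were both past 2-fold. Rsad2 was the only measured member above 0, with 28.1 and 46.3 CPM (0.72 [0.39, 1.07]).

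Outside the set, 12 of the 13 other gamma targets measured in cancer-like cells were more than 2-fold lower in TSK mice (7.33% of all genes were). This list, too, was chosen with earlier results of these data known. Ido1, which degrades tryptophan, had 114 UMIs in 78 WT cells and 5 in 864 TSK cells (41.6 and 0.183 CPM, −7.83 [−9.48, −6.57]). Cd274, which encodes the checkpoint ligand PD-L1, was at 21.9 and 6.76 CPM (−1.70), and Nlrc5, an activator of class I antigen presentation genes, at 60.2 and 18.4 CPM (−1.71). Tmem173 (STING), an adaptor of DNA sensing, was slightly higher at 155 and 181 CPM (0.23). None of the 5 receptors measured was past 2-fold.

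These cancer-like values rest on deep cells, with medians of 35002.5 UMIs in WT and 29696 in TSK mice. Above 10000 UMIs per cell (64 WT and 717 TSK cells, chosen after seeing the data), the gamma-type ratio was −1.59, whereas the few cells below that limit gave 0.05 and no member more than 2-fold lower. With shared barcodes kept, the ratio was −1.28. Markers of T cells stood at 38.3 CPM in WT and 7.28 CPM in TSK cancer-like cells, and endothelial markers at 342 and 191 CPM. Those of B cells (2.56 and 9.36 CPM), dendritic cells (60.6 and 74.9 CPM) and mast cells (8.76 and 27.4 CPM) were higher in TSK mice. Doublets were left in, and the part of RNA from other cells in the result was not tested.

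Neutrophil-like cells had the highest levels and the least certain comparison, with only 42 WT cells. Of 25 members measured, 11 were more than 2-fold lower in TSK mice (14.7% of all genes were) and 3 more than 2-fold higher (33.5% of all genes were). Under stricter marker rules, 3 were past 2-fold lower. Gbp2 was at 1455 and 260 CPM (−2.49 [−2.79, −2.18]), Igtp at 222 and 36.1 CPM (−2.62) and Irgm1, a regulator of autophagy, at 304 and 66.4 CPM (−2.20). Oasl1 was at 41.1 and 154 CPM (5 and 107 UMIs, 1.91 [0.64, 3.56]), Ifi27l2a at 107 and 345 CPM (1.69) and Usp18 at 24.7 and 73.6 CPM (3 and 51 UMIs, 1.58 [−0.05, 3.90]).

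Genes used for scale differed as much in these cells. Ppia, a protein-folding enzyme, was at 82.2 and 1248 CPM (3.93), and ribosomal protein genes held 1.61% of the UMIs in WT and 12.3% in TSK mice. Cancer markers Lgals7 and Cdkn2a stood at 0 and 395 CPM. Without cells holding either marker, the gamma-type ratio was −1.57 and the type I ratio 0.07. Rsad2, at 1266 and 821 CPM (−0.62), was among the most abundant members, as was Cd274 outside the set, at 1775 and 473 CPM (−1.91).

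Macrophage-like cells gave the deepest immune comparison, with all 39 members measured. Of these, 6 were more than 2-fold lower in TSK mice (2.27% of all genes were) and 0 more than 2-fold higher (10.7% of all genes were). The median member ratio was −0.30. Centred on the median gene, 10 members were past 2-fold lower, but the share of all genes was not counted with that centring. Ifi205, a p200 gene, was at 79.8 and 17.3 CPM (336 and 67 UMIs, −2.20 [−2.60, −1.82]), and Irf9, the DNA-binding part of the type I complex, at 131 and 32.6 CPM (−2.001 [−2.29, −1.72]). Gbp4 (−1.42), Irgm1 (−1.38), Gbp2 (−1.12) and Irf1 (−1.03) made up the rest.

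Stat2, the partner of Irf9, was closer to equality at 99.0 and 78.5 CPM (−0.34), and the most abundant members were Ifi27l2a, at 508 and 600 CPM (0.24), and Irf1, at 303 and 149 CPM. Ifit2 had the highest ratio, with 34.0 and 60.9 CPM (0.84 [0.54, 1.15]), while the other type I genes lay between −0.34 and 0.47. Among regulators and other gamma targets, Socs1, an inhibitor of Janus kinases, was at 59.6 and 21.2 CPM (−1.49) and Ciita, the master activator of class II antigen presentation, at 48.4 and 19.7 CPM (−1.30). Cxcl9 and Cxcl10 differed less, with ratios of −0.16 and 0.10. Over the alternatives tried, the gamma-type ratio of macrophage-like cells lay between −1.20 and −0.79. The make-up of this lineage differed between the libraries. C1q was found in 215 of 364 WT and 388 of 508 TSK cells, and Lgals7 and Cdkn2a stood at 11.6 and 143 CPM. The part of these differences in the ratios of single genes was not tested.

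Fibroblast-like cells had 4 of 37 measured members more than 2-fold lower in TSK mice (3.68% of all genes were) and 1 more than 2-fold higher (10.8% of all genes were). The lower count was 0 with the upper UMI limit and 7 when centred on the median gene. The 4 lower genes were all of the gamma-type group: Gbp4 with 35.2 and 7.04 CPM (−2.32 [−2.99, −1.71]), Irgm2 with 79.5 and 33.6 CPM (−1.24), Gbp2 with 252 and 123 CPM (−1.04) and Igtp with 107 and 52.8 CPM (−1.02). The gene past 2-fold in the other direction was Rsad2, with 18.01 and 36.3 CPM (1.01 [0.58, 1.45]). Ifi205 was the most abundant member in these cells, at 462 and 249 CPM (−0.89 [−1.01, −0.78]). Irf7 (0.66) and Ifit1 (0.58 [0.30, 0.87]) were on the higher side. Of the other gamma targets, 6 of 11 were more than 2-fold lower and 0 more than 2-fold higher, with Iigp1 at 1043 and 582 CPM (−0.84) and Cxcl9 at 774 and 389 CPM (−0.99). The libraries also differed in other ways within this lineage: Lgals7 and Cdkn2a stood at 37.3 and 251 CPM, endothelial markers at 457 and 196 CPM, and ribosomal protein genes held 8.14% and 15.4% of the UMIs. Without cells holding Lgals7 or Cdkn2a the gamma-type ratio was −0.53, and the part of these differences in the result was not tested.

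T cell-like cells had the fewest members past 2-fold. Of 33 members measured, only Irgm1 was more than 2-fold lower in TSK mice (46.6 and 19.6 CPM, −1.25 [−2.06, −0.52]), a share of members near that of all genes (1.78%), and 0 were more than 2-fold higher (2.36% of all genes were). With the upper UMI limit, 4 were past 2-fold lower. Igtp was at 97.8 and 49.6 CPM (−0.98), Gbp2 at 109 and 65.8 CPM (−0.73) and Gbp7 at 103 and 130 CPM (0.34). Ifi27l2a, the most abundant member, was at 505 and 712 CPM (0.50 [0.36, 0.63]). Jak1, a kinase that both pathways use, was nearly equal at 508 and 523 CPM (0.04).

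**Figure D4:**
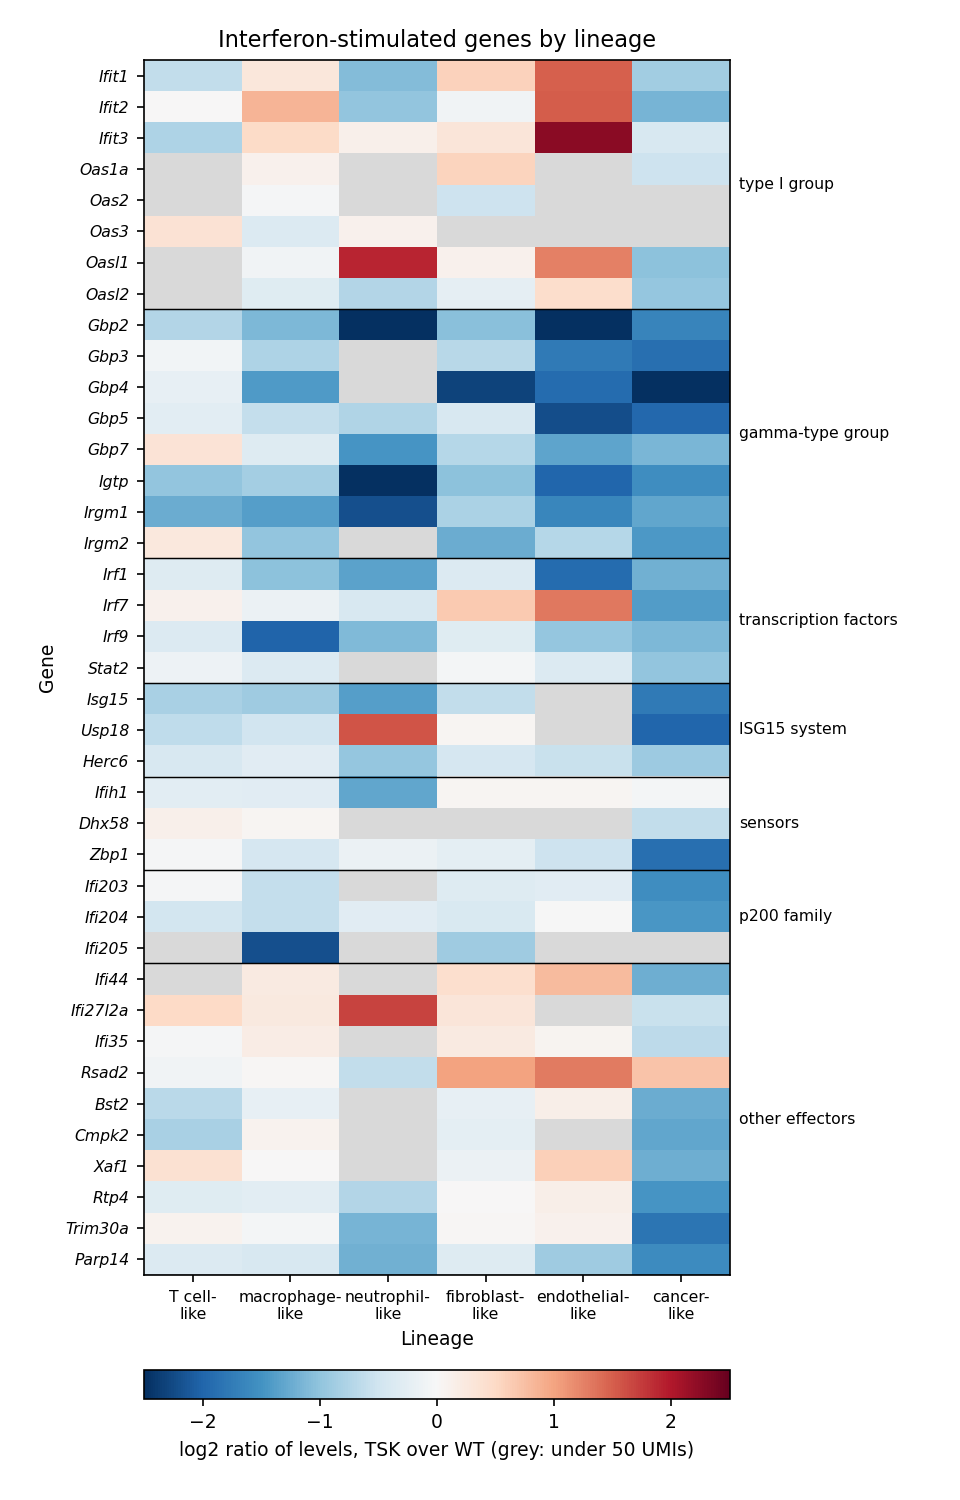
Log2 ratio of TSK over WT levels for the 39 measured members (lines, ordered by role) in the 6 lineages (columns); blue is lower and red higher in TSK, and grey marks genes under 50 UMIs. Gamma-type genes are blue wherever measured apart from Gbp7 (0.34) and Irgm2 (0.26) in T cell-like cells, cancer-like cells are blue in all members but Rsad2 (0.72), and endothelial-like cells are red for the Ifit genes (Ifit3, 2.26).

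Ifng, the gene of interferon gamma, had 629 UMIs in all WT cells (36.8 CPM) and 177 in all TSK cells (3.88 CPM). Of these, 89.5% and 71.2% came from T cell-like cells. Per UMI of T cell-like cells the level was 166 and 145 CPM (−0.19 [−0.48, 0.09]). The share of T cell-like cells was 31.9% in WT [29.5, 34.4] and 9.35% in TSK mice [8.33, 10.5], and they held 19.9% and 1.90% of the UMIs. In each library, Ifnb1, a type I interferon, had 10 UMIs, and no other ligand reached 50 UMIs in any lineage. In data summed over a library, fewer T cells, less Ifng per T cell and more RNA of other cells could not be told apart. Values per lineage are therefore given beside it. Cancer-like cells held 2739576 of the 17070622 UMIs in WT cells and 27350931 of 45661542 in TSK cells. T cell-like cells held 563 Ifng UMIs in 460 WT and 126 in 277 TSK cells, at median depths of 6782.5 and 2873 UMIs. The part of each in the Ifng values was not tested.

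To look within lineages, all assigned and unassigned cells were clustered on genes other than the members. The gamma-type group was lower in TSK mice in each of the 5 clusters in which macrophage markers led. It had 1025 and 495 CPM in the cluster led by Lyz2 and Cd86 and 756 and 551 CPM in that led by Retnla and F13a1. Of the 5, the cluster led by the dendritic markers Cd209a and Ccr7 (414 and 223 CPM) is weakly named. Macrophage markers made up 53.2% of its marker UMIs, and 22.0% of its cells were macrophage-like by the rule per cell. Of the T cell-like clusters, the one led by Cd8b1 and Nkg7 held most type I UMIs, with 282 and 218 CPM, against 48.8 and 104 CPM in the one led by Il2ra and Tox. A cluster led by Acta2 and Rgs5, genes of contractile cells around vessels, had 1917 and 323 CPM of the gamma-type group (21 WT and 68 TSK cells) and 667 and 224 CPM of the type I group. Fibroblast markers made up 54.1% of its marker UMIs, and 22.5% of its cells were fibroblast-like by the rule per cell. By that rule, markers of such contractile cells led in 1 WT and 16 TSK cells. Whether the WT and TSK cells of this cluster were of 1 type was not tested. The cancer-like clusters took different shares of the libraries. That led by Krt18 and Rorb (58 WT and 402 TSK cells) had 656 and 256 CPM of the gamma-type group, and that led by Cmss1 and H19 (76 and 368 cells) had 295 and 144 CPM. The name of the Cmss1 and H19 cluster is weak: cancer markers made up 53.0% of its marker UMIs. Only 31.1% of its cells were cancer-like by the rule per cell, and its median depths were 690 and 1780.5 UMIs. The cluster led by Rtl4 and Ptn (11 and 352 cells) had 789 and 138 CPM, and that led by histone genes (5 and 275 cells) had 71.6 [40.9, 116] and 115 CPM.

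**Figure D5:**
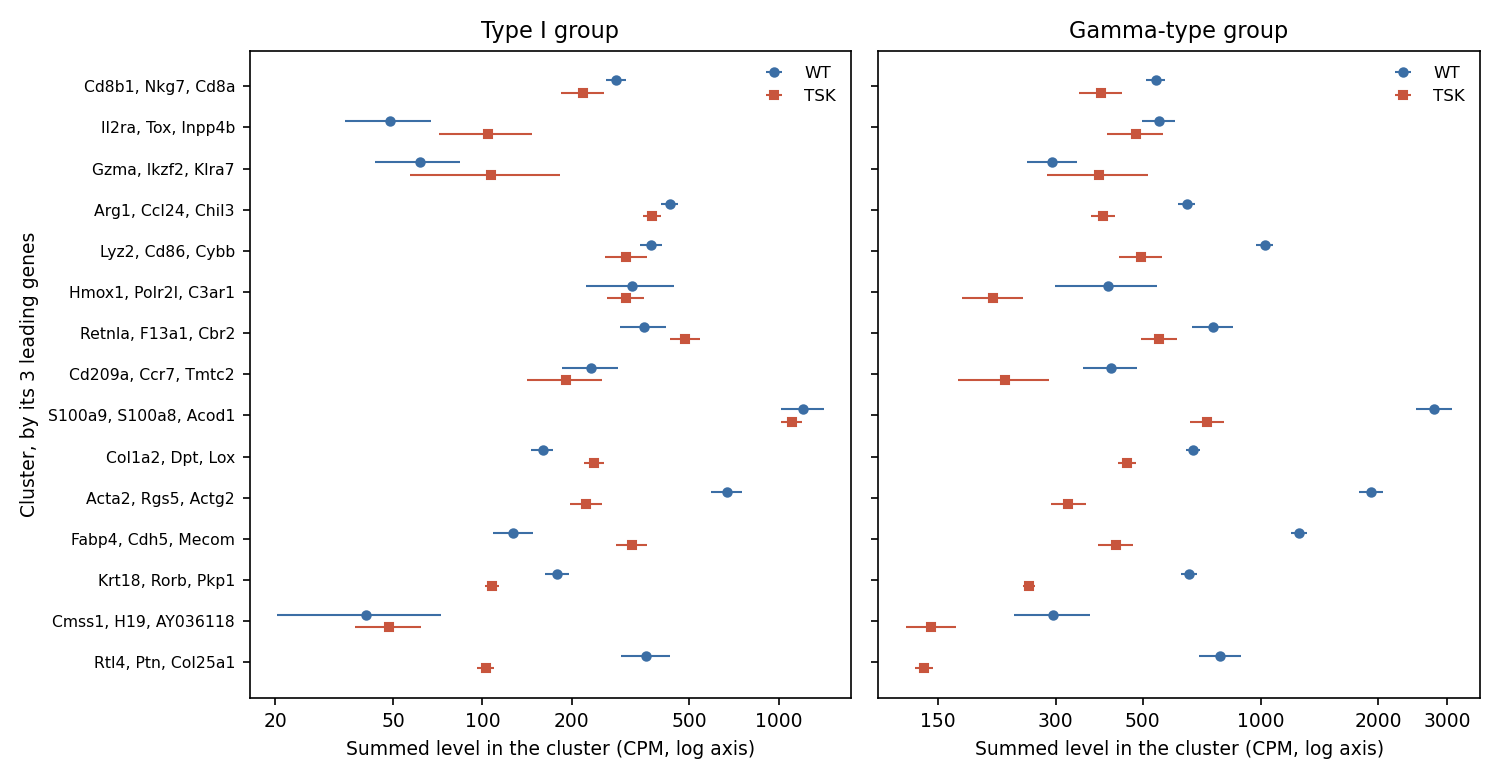
Summed level (CPM, log axes) of the type I group (left) and the gamma-type group (right) in each cluster with at least 10 cells of each library, named by its 3 leading genes and ordered by lineage; blue circles are WT, red squares TSK, and bars exact 95% Poisson intervals. The gamma-type point is lower in TSK in all but the cluster led by Gzma and Ikzf2 (294 and 387 CPM), while the type I points change order between clusters (127 and 319 CPM in that led by Fabp4 and Cdh5).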

How the data were processed

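Tumors of 4 WT and 4 TSK mice were pooled by genotype and gave 1 single-cell library each (10x Genomics, 3′ ends). The authors processed the reads with Cell Ranger (7.1.1 against mm10 per the submitters' processing notes, 7.1.0 per the file headers), and the deposited values are raw counts of UMIs per gene and barcode, without normalization.

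Cells with at least 200 genes, at least 500 UMIs and at most 10% mitochondrial UMIs were kept, and barcodes found in both libraries were removed. No upper limit and no doublet caller was applied, so doublets were left in. Each cell was assigned by its raw UMIs over 12 marker lists (111 markers, none a member), to the lineage with at least 5 marker UMIs and 2 times those of the next; names ending in -like say only which markers led. The 6 lineages with at least 30 cells in each library were compared. Counts were summed per lineage and library and divided by the lineage's UMIs. A gene needed 50 UMIs over both libraries for a ratio, and 3 counts were taken as the limit that a count of 0 allows. The genes named in each lineage were the type I and gamma-type members, members past 2-fold, the 5 members with most UMIs, members of the other role groups, and genes of lists for ligands, receptors, kinases, regulators, sensors and other gamma targets. The members and lists were chosen with earlier results of these data known. The split of UMIs between the top 5 cells and the rest was examined after the group values had been seen.

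For shares of cells, each cell was thinned to 2000 UMIs. Clusters were made with leidenalg 0.10.2 (igraph 0.11.9; 2000 variable genes without the members, 30 components, 20 neighbours, resolution 1). Calculations used scipy 1.17.1, numpy 2.4.6, scikit-learn 1.9.0 and pandas 2.3.3 in Python 3.11.15, and plots matplotlib 3.10.9. The ratios and intervals were tested on simulated data. Promoters came from RefSeq (GRCm38.p6) and gene positions from GENCODE M21. Alternatives were the study's upper limits, 20% mitochondrial UMIs, shared barcodes kept, stricter marker rules (10 UMIs, 4-fold), Leiden clusters, centring on the median gene, equal weight per cell, leaving out the top member, no thinning, a 1.5-fold threshold and a minimum of 20 UMIs, plus 5 added after seeing the data. Other experiments of the study were not analysed here, and 1 gene of these lists is not reported here.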

Additional observations from a re-analysis of the deposited data

Results flagged for a closer look

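The type I group stood out because its log2 ratio had opposite signs in different lineages, 1.30 in endothelial-like and −0.91 in cancer-like cells. Without the 5 highest cells of each library, type I levels were 78.0 CPM in WT and 96.7 CPM in TSK endothelial-like cells. In cancer-like cells they were then 64.2 and 64.2 CPM, but 5 cells are a larger part of 78 WT than of 864 TSK cells. This removal by itself lowers the WT level more. With equal weight for each cell, the cancer-like ratio was −0.55. The cancer-like ratio was 1.13 [−0.46, 3.44] under the upper limit of 10000 UMIs. With 1 library per genotype, the difference between these ratios was not tested.

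Gamma-type UMIs were also found in cells outside the comparisons. The 223 WT and 709 TSK cells without a lineage had 910 and 201 CPM of the gamma-type group. In the barcodes found in both libraries, 251 that passed the other filters in WT and 255 in TSK mice, the levels were 524 and 174 CPM. These came from 1628 and 66 UMIs, so the TSK barcodes were far shallower. Whether their UMIs came from TSK mice was not tested.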

How the results depend on the processing

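Of 264 planned values, 152 stayed within the counting interval (counts within 1.5 times), 106 moved beyond it and 6, of ratios whose interval excluded 0, changed sign; of 28 under alternatives chosen after seeing the data, 17, 10 and 1. The macrophage-like type I ratio, whose interval included 0, was −0.00900 with equal weight for each cell. Under these alternatives the endothelial-like ratios lay between −2.46 and −1.28 (gamma-type) and 0.98 and 2.02 (type I). Leaving out the 5 highest cells of each library, not among them, left type I levels of 78.0 and 96.7 CPM there. Lineages are named in brackets, and the cause of each shift was not tested. Counts past the fold threshold stand without the share over all genes, which was not counted under these settings. With the study's upper limits of 10000 UMIs and genes, the ratio of the type I group was 1.13 (cancer), 0.0277 (neutrophil), and the ratio of the gamma-type group was 0.0459 (cancer), −1.64 (endothelial), −0.29 (fibroblast), −1.60 (neutrophil). The intervals of these type I values and of the cancer and fibroblast gamma-type values included 0. The ratio of all members was −0.15 (T), 0.47 (cancer), −0.18 (endothelial), 0.29 (fibroblast), −0.42 (macrophage), −0.36 (neutrophil). The count lower in TSK past the fold threshold was 4 (T), 0 (cancer), 2 (endothelial), 0 (fibroblast), 3 (neutrophil). The count higher in TSK past the fold threshold was 2 (cancer), 0 (endothelial), 3 (fibroblast). Centred on the median gene, the ratio of the type I group was −0.13 (fibroblast), −0.20 (macrophage), and the ratio of the gamma-type group was −1.67 (cancer), −2.21 (endothelial), −1.25 (fibroblast), −1.20 (macrophage). The ratio of all members was −0.21 (T), −1.33 (cancer), −0.79 (endothelial), −0.65 (fibroblast), −0.64 (macrophage), −1.12 (neutrophil). The count lower in TSK past the fold threshold was 2 (T), 7 (fibroblast), 10 (macrophage). The count higher in TSK past the fold threshold was 3 (endothelial), 0 (fibroblast). With equal weight for each cell, the ratio of the type I group was −0.55 (cancer), −0.0168 (neutrophil), and the ratio of the gamma-type group was −1.14 (cancer), −1.40 (endothelial), −0.65 (fibroblast), −1.46 (neutrophil). The ratio of all members was −0.17 (T), −0.83 (cancer), −0.18 (endothelial), −0.0974 (fibroblast), −0.42 (macrophage), −0.31 (neutrophil). The count lower in TSK past the fold threshold was 3 (T), 13 (cancer), 1 (fibroblast), 6 (neutrophil). The count higher in TSK past the fold threshold was 0 (fibroblast). Without the member with most UMIs, the ratio of the type I group was 0.35 (fibroblast), −0.18 (neutrophil), and the ratio of the gamma-type group was −0.55 (T), −1.63 (endothelial), −0.83 (macrophage), −1.81 (neutrophil). The ratio of all members was −0.23 (T), −0.29 (endothelial), −0.27 (fibroblast), −0.50 (macrophage). With shared barcodes kept, the ratio of the gamma-type group was −1.28 (cancer), and the ratio of all members was −1.05 (cancer). The count higher in TSK past the fold threshold was 0 (fibroblast). Under stricter marker rules, the ratio of the type I group was −1.22 (cancer), 0.40 (fibroblast), −0.17 (neutrophil), and the ratio of the gamma-type group was −1.90 (cancer), −2.46 (endothelial), −0.78 (fibroblast). The ratio of all members was −1.51 (cancer), −0.74 (endothelial), −0.13 (fibroblast), −0.32 (macrophage), −0.63 (neutrophil). The count lower in TSK past the fold threshold was 4 (T), 2 (fibroblast), 3 (neutrophil). The count higher in TSK past the fold threshold was 0 (endothelial). With Leiden clusters as lineages, the ratio of the type I group was −0.0911 (macrophage), −0.13 (neutrophil), and the ratio of the gamma-type group was −1.80 (cancer), −1.56 (endothelial), −1.93 (neutrophil). The ratio of all members was −1.36 (cancer), −0.23 (endothelial), −0.42 (macrophage), −0.61 (neutrophil). The count lower in TSK past the fold threshold was 0 (T), 5 (neutrophil). With up to 20% mitochondrial UMIs, the ratio of all members was −0.40 (fibroblast), and the count higher in TSK past the fold threshold was 0 (fibroblast). In cells with Cd8a or Cd8b1, the ratio of the gamma-type group was −0.49 (T). Per UMI of genes neither mitochondrial nor ribosomal, the ratio of the gamma-type group was −1.47 (cancer), −0.82 (fibroblast). Without cells holding Lgals7 or Cdkn2a, the ratio of the type I group was 2.02 (endothelial), 0.0705 (neutrophil), and the ratio of the gamma-type group was −1.28 (endothelial), −0.53 (fibroblast), −0.80 (macrophage), −1.57 (neutrophil). In cells with C1q, the ratio of the type I group was 0.29 (macrophage), and the ratio of the gamma-type group was −0.79 (macrophage). At 1.5-fold, the count lower in TSK past the fold threshold was 9 (T), 9 (fibroblast), 13 (macrophage), 17 (neutrophil), and the count higher in TSK past the fold threshold was 1 (cancer), 2 (fibroblast), 1 (macrophage). With a minimum of 20 UMIs, the count lower in TSK past the fold threshold was 2 (T). Without thinning, the share of cells with 3 type I members was 9.57% (WT T), 9.61% (TSK cancer), 19.2% (WT cancer), 18% (TSK endothelial), 17.6% (WT endothelial), 13.1% (TSK fibroblast), 23.7% (WT fibroblast), 18.3% (TSK macrophage), 26.1% (WT macrophage). No paired analysis was possible because each genotype had 1 library, and for the same reason no replicate could be left out. Alternatives chosen after seeing the data were the C1q, Cd8, ribosomal, Lgals7 or Cdkn2a and over 10000 UMIs settings. The number of cells limits neutrophil-like (42 WT), endothelial-like (68 WT and 61 TSK) and cancer-like values (78 WT).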

Other observations

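A cluster of 70 cells led by Cd24a and Retnlg came only from the WT library, with a median depth of 728.5 UMIs, and held 192.7 CPM of the gamma-type group and 84.0 CPM of the type I group.

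In fibroblast-like cells, 1 TSK cell held 146 of the 776 type I UMIs, and in TSK cancer-like cells 1 cell held 221 of 2484. Of the TSK cancer-like cells, 30.1% had any type I UMI, against 53.8% of the WT cells, and 51.4% had a gamma-type UMI, against 80.8%; depth was not made equal for these shares.

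Irf8 in fibroblast-like cells was at 41.2 CPM in WT and 15.98 CPM in TSK mice (log2 ratio −1.37), whereas Irf3 was at 10.0 and 20.6 CPM (1.04). In T cell-like cells Irf8 was at 36.8 and 65.8 CPM (0.84).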
